A study of Mus musculus with 6 samples.

Results

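Transcripts annotated with a retained intron are spliced RNAs of a gene that still hold sequence which other transcripts of the gene remove as an intron. The set comprised every transcript with the biotype retained_intron in the authors' comparison table, and it held 3576 of the 18021 transcripts listed there, from 2474 genes. Nearly all host genes were protein-coding: 3562 members belonged to such genes and 14 to genes of long non-coding RNAs. Of the host genes, 1762 had 1 member, 465 had 2 and 247 had 3 or more, with a highest number of 9 in Aup1. The samples were 6 libraries of poly(A)-selected RNA from MLE-12, a mouse lung epithelial line that carries the large T antigen of SV40 as an immortalising transgene. In the group I/R + Dex, wild type cells, as labelled, received 10 µM dexmedetomidine for 12 h, then 1% oxygen for 12 h and normal oxygen for 4 h. In the group I/R the same hypoxia and reoxygenation was given without dexmedetomidine, a sedative drug that activates alpha-2 adrenoceptors. Each group had 3 libraries, which the labels call biological replicates and place in 1 batch. No cells kept at normal oxygen were analysed here, so every comparison is of dexmedetomidine pretreatment on a background of hypoxia and reoxygenation.

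Intron retention is a form of alternative splicing in which the spliceosome leaves an intron in a polyadenylated RNA. Introns begin at a donor site, usually GT, and end at an acceptor site, usually AG, which are bound by the U1 and U2 small nuclear ribonucleoproteins and their partners. A retained intron within the coding region usually brings a stop codon into frame. Such RNAs may be held in the nucleus, or exported and degraded by nonsense-mediated decay, and some are spliced later. Many transcripts carrying this annotation are fragments that begin or end inside an intron. Sequencing counts on them can come from intron bases or from exons that they share with coding transcripts of the gene.

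Total counts per library lay between 2333546 and 2941989, and a count of 0 in a library allowed a level of up to 1.02 to 1.29 CPM, the counts scaled by library size, taking 3 counts as the floor. Each library had a count on 2758 to 2910 members. Against their label, the cells had almost no RNA of lung epithelial markers. Of 14 such markers, 9 had no count in any library, among them 4 surfactant protein genes, 2 keratin genes and Nkx2-1, the gene of a lung lineage transcription factor. The summed level of the 14 was 5.14 to 18.6 CPM in I/R + Dex and 9.86 to 17.6 CPM in I/R, against 489 to 643 CPM in I/R + Dex and 503 to 590 CPM in I/R for 8 fibroblast markers, all of which were counted. Of 6 leukocyte markers, Cd3e and Cd79a had no count, and the 6 summed to 21.5 to 27.1 CPM in I/R + Dex and 17.2 to 25.3 CPM in I/R. Of 4 endothelial markers, Tek had no count, and the 4 summed to 5.78 to 10.3 CPM in I/R + Dex and 1.53 to 4.22 CPM in I/R. The part of these levels in the results was not tested. In bulk RNA fewer cells of a type and less RNA per cell cannot be told apart.

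The annotation held here, GENCODE vM21 on the build GRCm38, had 3565 of the 3576 members under the same gene, 3554 of them with the same length. At least 1 intron of a coding transcript of the gene was complete in 1600 members, of which 872 held exactly 1 (overlapping alternative introns were counted separately), and another 1959 held no complete intron but started or ended inside one. Members had a median length of 993 bases, against 3106 bases for the longest coding transcript of their genes. The 2923 complete retained introns had a median length of 337 bases, against 1211 bases for 35468 other introns of the same genes, and 46.7% were shorter than 300 bases, against 21.1%. An intron counted as complete only if it lay whole inside a member, and introns held in part were among the others. The shorter lengths are therefore partly built in. Of 2912 complete retained introns with sequence, 97.6% started with GT and ended with AG. Of 2590 that lay between coding exons, 2347 (90.6%) brought in a stop codon in frame, at a median of 35 bases into the intron.

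**Figure D1:**
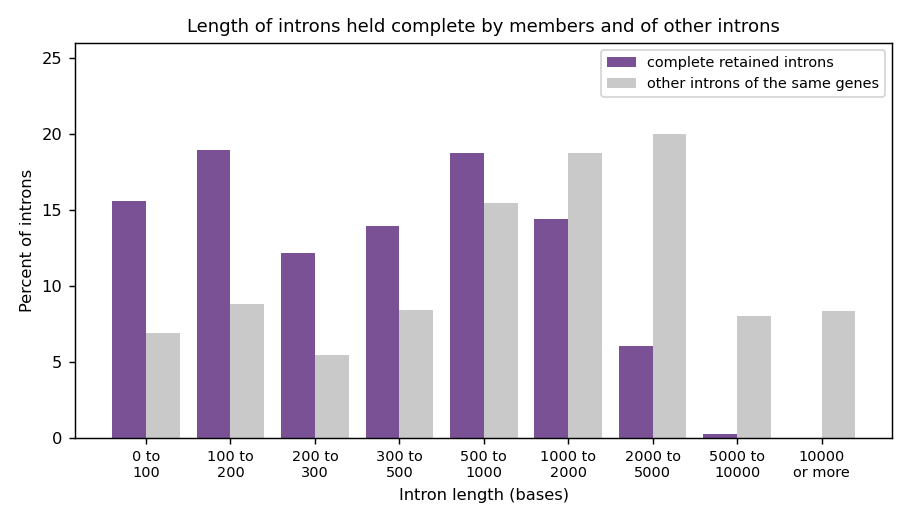
Percent of introns in each length class (bases), for the 2923 complete introns held by members and for 35468 other introns of coding transcripts of the same genes. The complete retained introns are shifted to short lengths, with 15.6% under 100 bases against 6.91% of the other introns. Introns held only in part count among the others, so part of the shift is built in.

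The retained sequence is shown first for 8 of the members named for a low p of the usage test or a wide gap between the groups. Creld1, Ilf2 and Ppan members held short complete introns, which are printed whole from donor to acceptor. Members of Tax1bp1, Nucb1, Rpl24 and Thrap3 run from an exon into an intron and end there, so the last 15 exon bases and the first 60 intron bases are printed, and for Aplp2, which starts inside an intron, the last 60 intron bases and the first 15 exon bases. Capitals mark the GT of the donor, the AG of the acceptor and the first stop codon in frame with the coding transcript. All are 5′ to 3′ on the strand of the gene, from GENCODE vM21 (GRCm38), at chr6:113489611-113489694 plus strand for Creld1, chr3:90486913-90486982 plus strand for Ilf2, chr9:20889440-20889633 and chr9:20891207-20891286 plus strand for Ppan, chr6:52729454-52729528 plus strand for Tax1bp1, chr7:45498340-45498414 minus strand for Nucb1, chr16:55969632-55969706 plus strand for Rpl24, chr4:126179852-126179926 minus strand for Thrap3 and chr9:31167714-31167788 minus strand for Aplp2.
Creld1 intron 5: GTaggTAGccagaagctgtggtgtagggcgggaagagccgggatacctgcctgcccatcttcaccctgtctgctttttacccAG
Ilf2 intron 11: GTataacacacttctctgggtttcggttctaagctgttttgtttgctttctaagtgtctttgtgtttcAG
Ppan intron 3: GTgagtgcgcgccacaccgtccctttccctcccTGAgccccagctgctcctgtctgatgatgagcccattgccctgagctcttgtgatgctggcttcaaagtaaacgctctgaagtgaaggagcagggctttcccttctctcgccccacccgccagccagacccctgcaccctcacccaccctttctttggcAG
Ppan intron 8: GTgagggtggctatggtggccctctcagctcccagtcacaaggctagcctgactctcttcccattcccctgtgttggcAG
Tax1bp1 exon into intron 4: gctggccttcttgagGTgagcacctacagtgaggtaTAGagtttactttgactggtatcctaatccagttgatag
Nucb1 exon into intron 7: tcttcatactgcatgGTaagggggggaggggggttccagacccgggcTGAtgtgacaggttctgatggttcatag
Rpl24 exon into intron 4: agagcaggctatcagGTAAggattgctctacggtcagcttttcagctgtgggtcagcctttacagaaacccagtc
Thrap3 exon into intron 3: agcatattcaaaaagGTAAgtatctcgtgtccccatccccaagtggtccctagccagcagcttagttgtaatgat
Aplp2 intron 6 into exon: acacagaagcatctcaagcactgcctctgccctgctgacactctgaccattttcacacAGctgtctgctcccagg
The stop of the Creld1 intron lies at base 6 and that of the Tax1bp1 intron at base 22, while in the introns of Rpl24 and Thrap3 the stop begins with the second base of the donor. The Ilf2 intron of 70 bases and the Ppan intron of 80 bases hold no stop in the frame of the coding transcript, and their lengths are not multiples of 3.

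As a class, retained-intron transcripts took close to the same part of the counts in both groups. They held 6.54%, 6.65% and 6.46% of all counts in the I/R + Dex libraries, against 6.47%, 6.29% and 6.78% in the I/R libraries, with means of 6.55% ± 0.0977 and 6.51% ± 0.246 (SD, n = 3 each). The 2 groups overlapped, and the I/R libraries held both the highest and the lowest value. Of the counts of their own host genes, members held 14.1%, 14.3% and 13.8% in I/R + Dex and 14.0%, 13.5% and 14.4% in I/R, with means of 14.1% ± 0.241 and 14.0% ± 0.492 (SD, n = 3 each). The difference of the means, I/R + Dex minus I/R, was 0.0374 percentage points of all counts and 0.104 points of host gene counts, smaller than the SD of either group. Coding transcripts held 82.2% ± 0.00585 of host gene counts in I/R + Dex and 82.1% ± 0.377 in I/R.

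**Figure D2:**
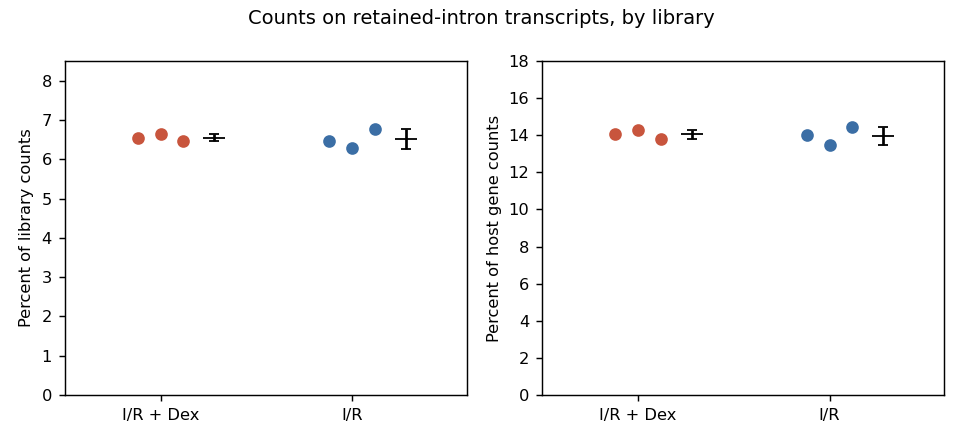
Percent of library counts (left) and percent of the summed counts of host genes (right) on the 3576 retained-intron transcripts, 1 point per library, with the mean and SD of each group beside the points. The groups overlap in both panels, at 6.29% to 6.78% of library counts over the 6 libraries.

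The counts came from many genes, with a few abundant members. By mean CPM, a count measure that also grows with transcript length, the first 10 members belonged to Fth1 (2 members), Eef1a1 (2), Cycs, Mark3, Rps24, Rragc, Hspa5 and Hnrnpa2b1. A member of Fth1, both of Eef1a1 and that of Hspa5 each held a single short intron of 77 to 95 bases, which is printed here to show what the most counted members retain, with capitals as before, at chr19:9984686-9984780 plus strand, chr9:78479535-78479623 and chr9:78479775-78479851 minus strand, and chr2:34773934-34774027 plus strand (GRCm38).
Fth1 intron 3: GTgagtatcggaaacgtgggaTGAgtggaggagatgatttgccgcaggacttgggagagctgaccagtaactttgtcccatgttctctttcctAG
Eef1a1 intron 5: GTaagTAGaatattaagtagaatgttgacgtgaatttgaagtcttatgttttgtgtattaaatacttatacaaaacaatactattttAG
Eef1a1 intron 4: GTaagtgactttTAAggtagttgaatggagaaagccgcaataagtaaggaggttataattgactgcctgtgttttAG
Hspa5 intron 5: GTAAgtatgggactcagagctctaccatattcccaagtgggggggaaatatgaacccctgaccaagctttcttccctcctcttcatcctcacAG
The member of Hnrnpa2b1, a gene of a heterogeneous nuclear ribonucleoprotein that binds pre-mRNA, was the steadiest of the 10, at 11.6%, 11.5% and 10.1% of its gene's counts in I/R + Dex and 11.2%, 12.4% and 11.7% in I/R. That of Cycs, which encodes cytochrome c, was the least steady: it held 20.3% to 39.7% in I/R + Dex and 7.72%, 97.9% and 36.5% in I/R, so a single group spanned nearly the whole scale. The Fth1 member with intron 3, from the ferritin heavy chain gene, had 2480, 4024 and 5620 counts in I/R + Dex against 2623, 4809 and 1292 in I/R. The Hspa5 member, from the gene of an endoplasmic reticulum chaperone, had 1490, 275 and 1564 counts in I/R + Dex against 1608, 1964 and 1260 in I/R. Only the Rps24 member separated the groups. This gene encodes a protein of the small ribosomal subunit, and its member held 50.7%, 33.8% and 42.8% of the gene's counts in I/R + Dex and 75.4%, 69.6% and 68.4% in I/R, a mean of 42.4% ± 8.46 against 71.1% ± 3.72 (SD, n = 3 each), with every I/R + Dex library below every I/R library. Its share did not pass the test (edgeR adjusted p = 1.00), and on its own counts edgeR gave a log2 fold change of -1.09 ± 0.19 (SE, adjusted p = 0.430), while DESeq2 called it on the same counts and the authors' deposited table marks it as significant.

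Shares were compared for the 2684 members whose gene had at least 20 counts in every library. The median member held 4.76% of its gene's counts over the 6 libraries. A mean share under 5% was found for 1372 members, 5% to 20% for 700, 20% to 50% for 364, 50% to 90% for 194 and 90% or more for 54, and 313 members were the most counted transcript of their gene. Members with larger shares resembled full-length transcripts more: at a mean share under 5% the median member was 0.287 times as long as the longest coding transcript of its gene, and at 50% or more it was 1.02 times as long. The share of members holding a complete intron was 38.7% and 59.1% in these classes. Counts also grow with transcript length, and the part of this in the shares was not tested.

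Few members changed between the groups on their own counts. edgeR's quasi-likelihood test called 0 of 1450 tested members, and 0 of all 9882 transcripts tested (0% called), with a smallest adjusted p of 0.0702 among members and 57 members (3.93%) at an unadjusted p under 0.05, against 289 transcripts (2.92%). DESeq2 on the same counts called 31 members, 18 higher and 13 lower in I/R + Dex (2.14% of the 1450), where 1.36% of all tested transcripts were called, and limma voom called 0. The authors' deposited table marks 26 of the 3576 members as significant, 15 higher and 11 lower, which is 0.727% of the members beside 0.577% of all listed transcripts. The median log2 fold change of tested members was 0.03, with 745 above 0 and 705 below, against a median of -0.00147 over all transcripts tested.

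The test of usage asks whether a transcript's share of its gene differs, and it passed 8 of 1224 tested members: 6 rose and 2 fell in I/R + Dex. Over all 4473 transcripts tested 0.805% passed, 0.425% higher and 0.380% lower, near the members' 0.654%. Members at an unadjusted p under 0.05 numbered 31, or 2.53%, against 2.50% of all transcripts. The transcripts that rose came from Tax1bp1, Creld1, Ilf2, Rhobtb2, Nucb1 and Ankrd13c, and those that fell from Aplp2 and Thrap3. All 8 were also called by DESeq2 on transcript counts and marked significant in the authors' deposited table. None of the 8 host genes changed by as much as 1.5-fold in its gene total. With any 1 library left out, between 3 and 6 of these 8 were still called, and only those of Tax1bp1, Creld1 and Aplp2 in all 6 of these fits. Other tests of usage called fewer of the 8: limma voom with diffSplice called 4 (Tax1bp1, Creld1, Ilf2 and Rhobtb2) and not those of Aplp2 (adjusted p = 0.521), Ankrd13c (0.333), Nucb1 (0.181) and Thrap3 (0.610), and limma on log2 share ratios called 6, without Ankrd13c and Nucb1.

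The Tax1bp1 transcript had the lowest p. Tax1bp1 encodes an autophagy receptor that binds ubiquitin, and the member ENSMUST00000128173 lies on chromosome 6 at 52690748 to 52708528 (GRCm39, the authors' table), where it covers the first exons and ends 2075 bases into intron 4. It had 396, 325 and 371 counts in I/R + Dex and 0 in every I/R library, at least 134-fold higher in CPM against a floor of 3 counts per library (edgeR adjusted p of the share = 0.000383). That was 96.1%, 98.2% and 95.9% of the gene's counts in I/R + Dex. The coding transcript ENSMUST00000080723 was its mirror image, with 3.88%, 1.81% and 3.88% in I/R + Dex and 100% in each I/R library. Gene totals of 412, 331 and 387 counts in I/R + Dex and 359, 404 and 432 in I/R overlapped, with a gene log2 fold change of 0.07 ± 0.11 (SE).

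Creld1, Ilf2 and Rhobtb2 showed the same kind of exchange between a member and a coding transcript. For Creld1, a gene of a membrane protein of the endoplasmic reticulum, the member with intron 5 had 78, 53 and 77 counts in I/R + Dex and 0 in I/R, at least 25.5-fold higher (edgeR adjusted p of the share = 0.00377), on gene totals of 78, 87 and 77 in I/R + Dex and 94, 83 and 75 in I/R. It therefore held the whole gene in 2 of the I/R + Dex libraries and 60.9% in the other. For Ilf2, which encodes the NF45 subunit of a complex that binds double-stranded RNA, the member with the intron of 70 bases had 400, 173 and 386 counts in I/R + Dex against 0, 3 and 0 in I/R (edgeR adjusted p of the share = 0.00600). The coding transcript of Ilf2 had 0 counts in I/R + Dex and 430, 520 and 373 in I/R, at least 132-fold lower in I/R + Dex, and in the second I/R + Dex library another member of the gene, ENSMUST00000198641, took 162 of 336 counts. For Rhobtb2 the member held 100% of the counts in each I/R + Dex library, with 83, 74 and 69 counts, and 0%, 0% and 2.78% in I/R (edgeR adjusted p of the share = 0.0159). Its complete retained intron is 846 bases long. The call for Ilf2 was lost without I/R + Dex replicate 3 or without any 1 I/R library (adjusted p = 0.134 to 0.435), and that for Rhobtb2 in 5 of the 6 fits that leave out a library (adjusted p = 0.0728 to 0.0992).

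Nucb1 and Ankrd13c rose without displacing the coding transcript altogether. The member of Nucb1, which encodes a calcium-binding protein of the Golgi, is 438 bases long and had 160, 46 and 184 counts in I/R + Dex against 5, 13 and 14 in I/R. Its share was 48.2% ± 25.5 in I/R + Dex and 2.39% ± 0.811 in I/R (SD, n = 3 each, edgeR adjusted p = 0.0187), and the call was lost in 5 of the 6 fits without 1 library (adjusted p = 0.0868 to 0.156). The Ankrd13c member, from a gene of an ankyrin repeat protein, had 34, 38 and 122 counts in I/R + Dex against 0, 0 and 1 in I/R, or 3.16%, 3.77% and 11.1% of the gene against at most 0.0909% in I/R (edgeR adjusted p = 0.00367). The coding transcript of Ankrd13c held 88.6% ± 3.21 in I/R + Dex and 92.9% ± 3.28 in I/R. Without I/R + Dex replicate 3 the adjusted p for Ankrd13c was 0.0521.

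The 2 members that fell had no count in any I/R + Dex library. For Aplp2, a gene of the amyloid precursor protein family, the member had 0 counts in I/R + Dex and 846, 256 and 661 in I/R, at least 180-fold lower in I/R + Dex (edgeR adjusted p of the share = 0.00600). Its share in I/R ranged widely, at 80.2%, 20.1% and 68.6%, and the coding transcript ENSMUST00000072634 held 71.4%, 98.6% and 98.2% in I/R + Dex and 19.6%, 79.7% and 31.3% in I/R. For Thrap3, which encodes a nuclear protein associated with splicing factors, the member had 0 counts in I/R + Dex and 15, 18 and 67 in I/R, 3.16%, 3.20% and 9.93% of the gene (at least 10.2-fold lower in I/R + Dex, edgeR adjusted p of the share = 0.0159). The Thrap3 call was lost in 5 of the 6 fits without 1 library (adjusted p = 0.0832 to 0.589).

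Measured directly as a gap in percentage points, 10 of the 2684 members had every share in one group at least 20 points above every share in the other, 7 higher and 3 lower in I/R + Dex. All 10 lay in genes with 2 or more listed transcripts, where they made up 0.379% of the 2641 members. The same was true of 0.562% of all 8181 listed transcripts of such genes, with 0.269% higher and 0.293% lower. Besides the members of Rhobtb2, Tax1bp1, Creld1, Ilf2 and Aplp2, these were members of Ppan, Rpl24, Tbrg4, Fkbp1a and Zmat2. For all 10 the gene total differed by less than 1.5-fold between the groups. Aplp2, with a gap of 20.1 points, was just inside the limit, and the Nars member, with 19.9 points, just outside. With any 1 of the 6 libraries left out, 19 to 28 members had such a gap.

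**Figure D3:**
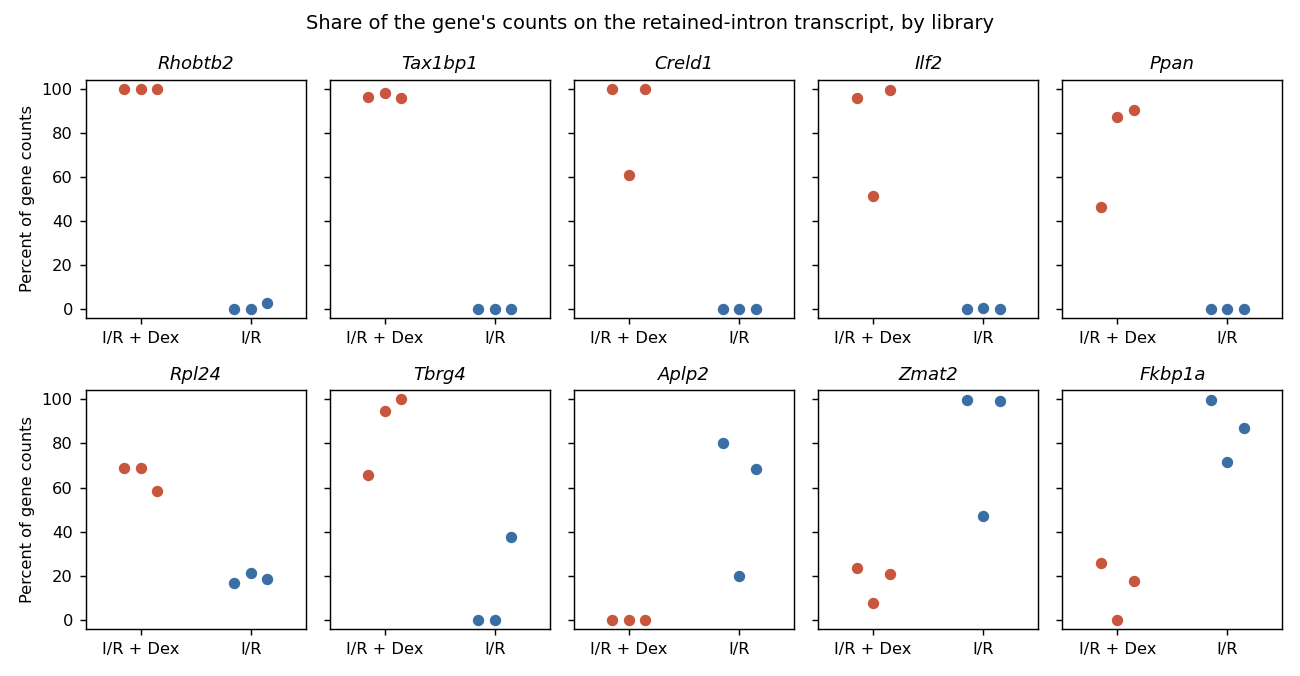
Percent of the gene's counts on the retained-intron transcript in each library, for the 10 members with a gap of at least 20 percentage points, 1 point per library. For Rhobtb2 and Tax1bp1 the libraries of a group lie within 3 points of each other, whereas for Aplp2 and Zmat2 the I/R libraries spread over more than 50 points.

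Rpl24 was the most counted of these genes. It encodes a protein of the large ribosomal subunit, and its member, 452 bases long, runs 128 bases into intron 4. The member had 1693, 1657 and 1231 counts in I/R + Dex against 400, 632 and 418 in I/R, a share of 65.4% ± 6.02 against 18.9% ± 2.44 (SD, n = 3 each). On its own counts edgeR gave a log2 fold change of 1.83 ± 0.20 (SE, adjusted p = 0.118), while DESeq2 called the member on the same counts and the authors' deposited table marks it as significant. edgeR's usage test gave an adjusted p of 0.967, against 3.05e-06 with limma voom and diffSplice. The coding transcript of Rpl24 held 34.2% ± 6.01 in I/R + Dex and 80.1% ± 2.18 in I/R. The gene total of Rpl24 had a log2 fold change of 0.04 ± 0.09 (SE).

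Ppan, a gene for assembly of the large ribosomal subunit, had members moving in both directions. The member with introns 3 and 8 had 54, 82 and 38 counts in I/R + Dex and 0 in I/R, at least 21.6-fold higher, while an unspliced member of 3914 bases, which keeps all 10 introns of coding transcript ENSMUST00000004203, was found with 5, 3 and 2 counts in I/R + Dex against 18, 18 and 12 in I/R. Neither share passed the test (edgeR adjusted p = 0.154 and 1.00). The first was called by limma voom with diffSplice (adjusted p = 0.0412), and on transcript counts by DESeq2 and in the authors' deposited table, and leaving out I/R + Dex replicate 1 brought its edgeR adjusted p for usage to 0.0205. The Tbrg4 member, from a gene that acts on mitochondrial RNA, had 29, 55 and 38 counts in I/R + Dex against 0, 0 and 15 in I/R, with gene totals of only 38 to 58 counts.

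Fkbp1a and Zmat2 had members with lower shares in I/R + Dex. Fkbp1a encodes the immunophilin FKBP12, and its member held 25.9%, 0% and 17.5% in I/R + Dex against 99.8%, 71.6% and 86.8% in I/R, while the coding transcript held 85.2% ± 13.3 in I/R + Dex and 4.65% ± 7.15 in I/R (SD, n = 3 each). Zmat2 encodes a zinc finger protein of the spliceosome, and its member held 17.3% ± 8.42 in I/R + Dex and 82.0% ± 30.4 in I/R. A member of Snrpb2, the gene of a U2 small nuclear ribonucleoprotein subunit, came close, with 0%, 0% and 81.2% in I/R + Dex against 100% in each I/R library. None of these 3 passed the usage test (edgeR adjusted p = 1.00 for each), but DESeq2 called the Zmat2 member on transcript counts and the authors' deposited table marks it as significant.

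Other members had separated shares with a narrower gap between the groups. The Cep170 member, from a centrosome gene, held 15.4% ± 4.26 in I/R + Dex and 1.32% ± 1.18 in I/R. A Smg1 member, from the gene of the kinase that phosphorylates UPF1 in nonsense-mediated decay, had 6, 3 and 7 counts in I/R + Dex against 48, 73 and 113 in I/R, a small part of gene totals of 1919 to 2440 counts. A Psmd6 member, from a proteasome gene, held 13.4%, 0.575% and 0% in I/R + Dex against 83.8%, 80.1% and 30.5% in I/R. In a Pabpc1 member, from the gene of the cytoplasmic poly(A)-binding protein, the share was 0.703% ± 0.573 in I/R + Dex and 3.87% ± 0.615 in I/R (SD, n = 3 each). None of these passed the usage test (edgeR adjusted p = 0.227 for Cep170, 0.447 for Smg1 and 1.00 for Psmd6 and Pabpc1), but on transcript counts DESeq2 called the members of Cep170 and Smg1, which the authors' deposited table also marks as significant. In all, shares did not overlap between the groups for 255 of the 2641 members of genes with 2 or more listed transcripts (9.66%), 140 higher and 115 lower, against 9.14% of all listed transcripts of such genes.

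A member can also change with its whole gene. Of 2113 host genes tested on gene counts edgeR called 2, beside 0.0675% of all genes tested. Over all genes, 0 were called by limma voom, with a replicate block or without I/R replicate 2, so neither call held there. The other settings called 3 to 16 genes. Utp4, whose protein is part of the small subunit processome, had 2, 2 and 0 counts in I/R + Dex against 87, 77 and 92 in I/R, and 73, 65 and 92 of the I/R counts were on its member, so the gene with its member nearly disappeared (gene log2 fold change -5.73 ± 0.57, SE, edgeR adjusted p = 0.0411). Mboat7, a lysophospholipid acyltransferase gene, had 27, 19 and 15 counts in I/R + Dex against 132, 149 and 99 in I/R (edgeR adjusted p = 0.0421), but its member was seen in 1 library of each group, with 14 counts in I/R + Dex replicate 3 and 111 in I/R replicate 1.

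Shares also varied among libraries of the same group. The share of 749 of the 2684 members ranged over 20 points or more among the 3 libraries of 1 group, 540 in I/R + Dex and 517 in I/R, and 391 ranged over 40 points or more. In 204 cases a member was at 0 in 1 library of a group and at 40% or more in another. Of the 2641 members in genes with 2 or more listed transcripts 27.9% had such a range of 20 points, a smaller part than the 38.0% of all listed transcripts and the 46.1% of protein-coding transcripts of the same kind. A range in points cannot exceed the highest share, and the median member held only 4.76% of its gene's counts. The part of this limit in the lower percentage was not tested. The within-group SD of a member's share was divided by the SD that binomial sampling of the gene's counts would give. The median of this ratio was 3.10 for members, leaving out shares close to 0 or to the whole gene. For all listed transcripts of genes with 2 or more it was 3.51, and for the protein-coding ones 3.81.

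Deep genes ranged less but were not free of it. With a median gene count of 20 to 50 the part of members ranging over 20 points was 54.4%, and with 500 or more it was 13.7%. In the latter class the median ratio of observed to binomial SD, taken as above, was 5.70. In 565 of the 749 (75.4%) the gene total differed by less than 1.5-fold between the same libraries. Coding transcripts of the gene took up most of the difference in 542 (72.4%), and other members of the gene did in 100. Members ranging over 40 points were longer, at a median of 0.718 times the longest coding transcript, against 0.308 for members ranging under 20 points in both groups. The part played here by the growth of counts with transcript length was not tested.

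**Figure D4:**
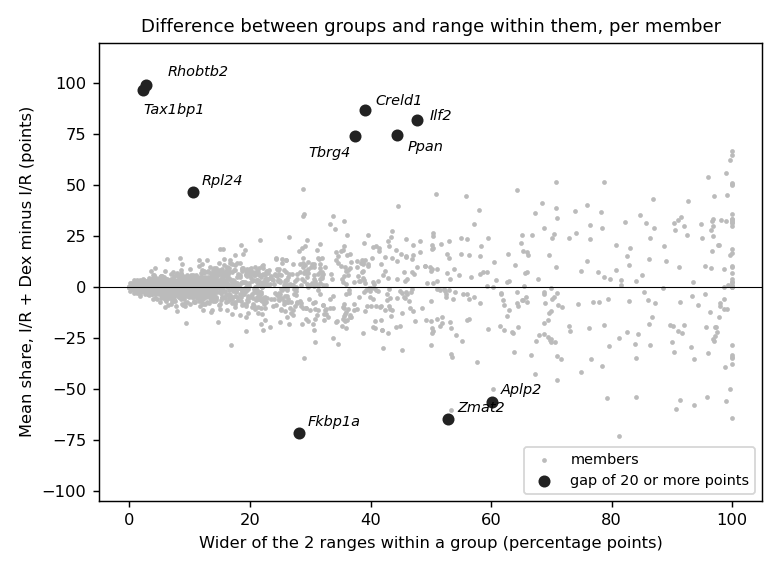
Mean share in I/R + Dex minus mean share in I/R (percentage points) against the wider of the ranges within the groups (percentage points), 1 point per member, for the 2684 members of genes with at least 20 counts in every library. Named points have a gap of at least 20 points; many unnamed members reach a range of 100 points within a group.

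The widest ranges ran from the whole gene to nothing inside a group. Arhgef1, which encodes a guanine nucleotide exchange factor, had 0, 103 and 126 counts on its member in I/R + Dex and 83, 122 and 0 in I/R, on gene totals of 103 to 128 in I/R + Dex and 91 to 142 in I/R. Krtcap2, the gene of an oligosaccharyltransferase subunit, had 211, 0 and 186 counts on its member in I/R + Dex and 13, 12 and 45 in I/R. Rsu1, a gene of an adhesion protein that suppresses Ras signalling, had 263, 238 and 0 in I/R + Dex against 0, 0 and 142 in I/R, and a further member of Rsu1 took 232 and 148 counts in I/R replicates 2 and 3. Bap1, the gene of a nuclear deubiquitinase, had 405, 510 and 0 in I/R + Dex against 634, 72 and 146 in I/R. Arfgap1 and Lrrc73 behaved likewise: the Arfgap1 member held 94.1% to 100% of its gene in the I/R + Dex libraries and 0%, 98.4% and 100% in I/R, and that of Lrrc73 held 4.76%, 7.86% and 100% in I/R + Dex and 5.26%, 100% and 0% in I/R. In each of these 6 genes the shares of the groups overlapped. One complete intron of the Arhgef1 member, 154 bases at chr7:24912156-24912309 plus strand (GRCm38), and the donor of the Krtcap2 intron at chr3:89247114-89247188 plus strand, with 15 exon bases, are given for comparison with those of the members that separated the groups, with the same capitals.
Arhgef1 intron 5: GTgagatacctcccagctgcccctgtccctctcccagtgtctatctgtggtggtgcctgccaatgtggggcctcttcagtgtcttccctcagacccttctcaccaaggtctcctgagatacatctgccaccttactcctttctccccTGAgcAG
Krtcap2 exon into intron 3: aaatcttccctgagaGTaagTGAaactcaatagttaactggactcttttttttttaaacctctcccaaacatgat
Both introns start with GT and hold a stop codon in frame, as do the introns of Creld1 and Tax1bp1. The Ilf2 intron and Ppan intron 8, also from members that separated the groups, hold no stop in frame. Of all complete retained introns between coding exons 90.6% held one.

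Libraries of the same group differed in about as many members as libraries of different groups. Between an I/R + Dex and an I/R library, 310 to 364 of the 2684 members were 20 points or more apart, with a median of 329 over 9 pairs. Between libraries of 1 group, 319 to 347 were, with a median of 329.5 over 6 pairs. The mean absolute difference per member was 8.45 to 9.43 points between the groups and 8.63 to 9.02 points within them. Summing all members of a gene left the spread in place: of 1690 host genes, the summed share ranged over 20 points or more within a group in 626 (37.0%), and it had a gap of 20 points between the groups in 8, namely Rhobtb2, Ilf2, Tax1bp1, Creld1, Rpl24 and Tbrg4, which were higher in I/R + Dex, and Fkbp1a and Zmat2, which were lower.

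**Figure D5:**
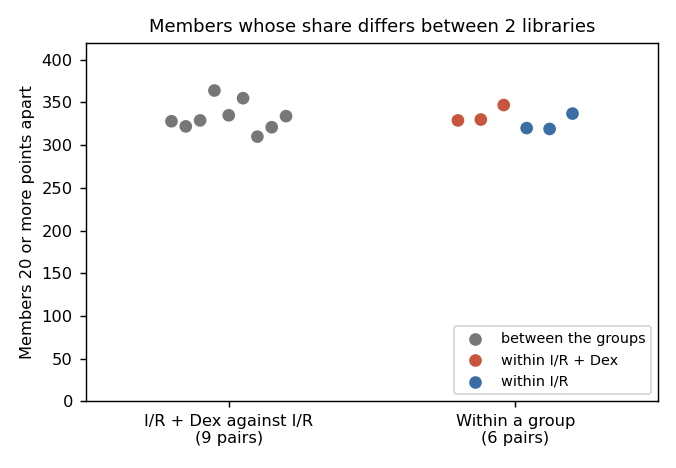
Number of members, of 2684, whose share of the gene differs by 20 percentage points or more between 2 libraries, 1 point per pair of libraries. The 9 pairs of an I/R + Dex with an I/R library span 310 to 364 members and the 6 pairs within a group 319 to 347.

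Of the genes listed here that splice introns, bind pre-mRNA or degrade unspliced RNA, 0 passed the test on gene counts. Of 205 genes in 10 lists, 201 had a count and 173 were tested on gene counts. Of these 173, edgeR, DESeq2 and limma voom each called 0. Over all 7412 genes tested, edgeR called 5 (0.0675%), DESeq2 16 and limma voom 0, so 0 of 173 is near the share over all genes. At an unadjusted p under 0.05 were 4 of the list genes (2.31%), against 3.39% of all genes tested. The median log2 fold change of the tested list genes was -0.00350, beside -0.00518 for all genes tested, and 85 were above 0. The 4 were Thoc7, Ddx17, Srsf3 and Pnisr. Thoc7, of the THO complex in mRNA export, had 32.4 ± 3.50 CPM in I/R + Dex and 16.7 ± 4.12 in I/R (log2 fold change 0.96 ± 0.25, SE). Ddx17, an RNA helicase gene, had 272 ± 64.4 CPM in I/R + Dex and 404 ± 30.1 in I/R. Srsf3, of the serine- and arginine-rich splicing factors (SR proteins), had 75.1 ± 5.25 CPM in I/R + Dex and 99.7 ± 18.8 in I/R, and Pnisr, which encodes a nuclear SR-related protein, 428 ± 46.2 CPM in I/R + Dex and 327 ± 64.0 in I/R (SD, n = 3 each). The edgeR adjusted p was 1.00 for each of these 4.

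List by list, the median log2 fold changes lay between -0.18 and 0.09. SR proteins had a median log2 fold change of 0.08 over 11 tested genes, their kinases and phosphatase 0.04 over 9, U1 and U2 components 0.02 over 20, U4/U6 and U5 components -0.00736 over 14, and the Prp19 complex and step factors -0.02 over 17. Sm and LSm genes had a median of -0.18 over 5, of which 0 were above 0, with Lsm4 at 50.9 ± 1.23 CPM in I/R + Dex and 63.0 ± 5.04 in I/R. The hnRNP genes had a median of -0.04 over 26, other splicing regulators 0.06 over 32, exon junction complex and nonsense-mediated decay genes -0.06 over 17, and genes of nuclear RNA decay and export 0.09 over 22.

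These lists themselves held 228 members, in 111 genes, and 122 of them were tested for usage, with 0 called by edgeR. Of the 211 in genes with at least 20 counts in every library, 0 had a gap of 20 points between the groups and 39 ranged over 20 points within a group. Over all members 0.654% of the 1224 tested were called. Of the 2684 with such gene counts 0.373% had such a gap and 27.9% such a range. Both values of 0 are thus near the shares over all members. The lists did not hold Zmat2, whose member had such a gap, or Thrap3, whose member passed the usage test. Both values of 0 therefore cover the listed genes only. The Srsf3 member, which holds introns 3 and 4 of this gene, had 1, 2 and 51 counts in I/R + Dex against 1, 187 and 184 in I/R. The Hnrnpl member was almost confined to a single library, with 57, 90 and 15 counts in I/R + Dex and 13, 12 and 1414 in I/R. The Ptbp1 member, from the gene of the polypyrimidine tract-binding protein, had 102, 152 and 206 counts in I/R + Dex against 57, 0 and 0 in I/R, and that of the SR protein kinase gene Srpk1 had 94, 73 and 56 in I/R + Dex against 0, 30 and 8 in I/R. In both the groups were separate, with shares of 39.4% ± 14.6 in I/R + Dex and 3.44% ± 5.95 in I/R for Ptbp1, and 15.8% ± 3.44 in I/R + Dex and 2.18% ± 2.42 in I/R for Srpk1 (SD, n = 3 each), and in both edgeR's usage test gave an adjusted p of 1.00. The named members of Pnn (ENSMUST00000217676) and Prpf19 (ENSMUST00000190275) held at most 6.51% of their genes in any library, and a second Pnn member, ENSMUST00000217773, reached 8.70% in I/R replicate 2.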

How the data were processed

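Poly(A)-selected RNA was measured in 6 libraries, grouped by their labels. Whole-number gene and transcript counts, not normalised, and FPKM values were deposited by the authors. For each listed transcript the authors' deposited table holds the biotype, the length in bases, and a log2 ratio of the groups with its raw and adjusted p-value. The build GRCm39 and the tools StringTie 2.2.4, DESeq2 1.30 and HISAT2 2.1.0 are named, without their roles, per the submitters' processing notes. No source used here says how reads shared by several transcripts of a gene were divided, and every share depends on it. All 18021 listed transcripts had at least 3 counts in at least 2 libraries.

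The share of a member is its count over the gene count of the same library. SD values give the spread between libraries. SE values are the size of edgeR's log2 fold change divided by the square root of its F statistic, from fits that include that spread. The floor of 3 counts covers counting error only, since molecules were not tagged. edgeR 4.0.16 (R 4.3.3) was run on all transcripts after filterByExpr and TMM with the robust quasi-likelihood test, diffSpliceDGE for usage within a gene, and gene counts for the lists, with Benjamini-Hochberg adjustment over all features tested and a threshold of 0.05. Alternatives used DESeq2 1.42.0 and limma 3.58.1, other filters, other denominators, the deposited FPKM, and each library left out. Scripts were tested on simulated data, where the usage test and DESeq2 passed somewhat more unchanged transcripts than the threshold allows, and the usage test also missed part of the changed ones. Members and gene lists were chosen with earlier results of these data known. Named members had the lowest usage p with separated shares, the widest gap, the highest mean CPM or the widest range within a group, and named list genes the lowest p. Introns, frames and sequences came from GENCODE vM21, GRCm38, and no coordinate was converted. The labels call replicates biological, so p-values rest on the spread of 3 libraries per group.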

Additional observations from a re-analysis of the deposited data

Results flagged for a closer look

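Retained-intron transcripts outside the authors' table also carried counts. Of 5880 such counted transcripts, 3119 had counts in 1 library only, and 46 of these had 100 or more counts there and 0 in the other 5. All 18021 listed transcripts had at least 3 counts in at least 2 libraries, against 1 unlisted transcript of any kind. High counts on an unlisted transcript therefore lie in 1 library almost by definition. Of the 46, 13 were in an I/R + Dex library, with 0 counts in every I/R library, which is what called for a closer look, and 33 were in an I/R library. Among the 13 were a transcript of Fmr1 with 772 of the gene's 2092 counts in I/R + Dex replicate 1 and a transcript of Kif5b with 667 of 1689 counts in I/R + Dex replicate 2. Among the 33 were transcripts of Ctnnb1, with 1587 of 3508 counts in I/R replicate 3, and Huwe1, with 1115 of 6679 counts in I/R replicate 2.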

How the results depend on the processing

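The counts of members by size of gap or range move with the limit chosen: 20, 10 and 6 members had a gap of 10, 20 and 40 points, and 1187, 749 and 391 a range of that size within a group. With each library left out, the number with a gap of 20 points was 19 to 28, as 2 against 3 libraries separate more easily, and the number with a range of 20 points was 666 to 682. Members called on transcript counts numbered 0 in edgeR, 31 in DESeq2, 1 with no filter beyond 1 count, and 0 to 1 with each library left out. Members called on share numbered 8, against 2 with no such filter, and 8 to 12 with each library left out. The unfiltered fit covered 24041 transcripts in place of 4473, and the reason for its lower number was not tested. A replicate block gave 1 call in place of 8. In gene levels, libraries of the same number did not deviate together (r = 0.0234, -0.00961 and -0.00415). Pairing in transcript shares was not tested, so these values do not set the block result aside. Other size factors gave 8, a minimum of 20 counts in 3 libraries 7, voom with diffSplice 6 and limma on log2 share ratios 7. Of the 8 members themselves, 4 were called by voom with diffSplice, 6 on log2 share ratios, 7 with a minimum of 20 counts and 2 with no filter. With each library left out, the difference in percent of library counts, I/R + Dex minus I/R, was -0.0745 to 0.169 points, in percent of host gene counts -0.149 to 0.342 points, and 0 list genes were called. The sign of the first also turned without the 5 most counted members (-0.00808) and with FPKM (-0.0380), and that of the second with FPKM (-0.296). The values for the first were smaller than the SD of either group in the main counts. The value for the second was larger than the main SD of I/R + Dex (0.241) and smaller than that of I/R (0.492). The spread of the FPKM percentages themselves is not given here. Depth limits members of genes with few counts, where a few reads move a share by many points.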

Other observations

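Unlisted transcripts of every biotype together took 0.967%, 0.890% and 0.983% of counts in the I/R + Dex libraries and 1.12%, 1.16% and 1.31% in the I/R libraries, so the groups did not overlap (0.947% ± 0.0495 against 1.20% ± 0.0987, SD, n = 3 each). Processed pseudogenes took 10.1% ± 0.228 in I/R + Dex and 10.0% ± 0.0325 in I/R, and transcripts annotated for nonsense-mediated decay 1.89% ± 0.141 in I/R + Dex and 1.92% ± 0.116 in I/R. A member of Otud5, the gene of a deubiquitinase, had 0, 2 and 1 counts in I/R + Dex against 311, 20 and 14 in I/R, a separation carried mostly by I/R replicate 1. The Noc2l member held 74.6% ± 10.8 of its gene in I/R + Dex and 96.2% ± 3.58 in I/R, and ENSMUST00000179543, which codes for the protein, had 15, 15 and 31 counts in I/R + Dex against 0 in each I/R library (edgeR adjusted p of the coding transcript's share = 0.00552).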
